A study of Mus musculus with 8 samples.

Results

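Transcripts of 38 mouse genes that act in DNA replication and mitosis were examined in pancreatic islets that lack integrin β1 in the endocrine lineage. The genes were picked by function, with earlier results of these data known. All 38 were found by symbol in a table of 24091 genes. They comprise 15 replication genes, 19 mitotic genes and 4 cell-cycle transcription factors. Bulk RNA-seq had been performed on islets isolated by collagenase perfusion from 6-week-old C57BL/6 mice, with 4 control and 4 mutant libraries. The labels give the controls as wild-type and the mutants as *Ngn3*-Cre, itgb1-/-, and they do not state whether the controls carry the Cre. In the mutants (*Itgb1* ΔEndo/ΔEndo), *Ngn3*-Cre removes a floxed *Itgb1* in endocrine progenitors and all cells derived from them, while vessels, fibroblasts, ducts and immune cells of the islet preparation keep the gene. *Ngn3* is also active in the brain and the gut, so the deletion is not limited to islets. The series calls the 4 libraries of a genotype biological replicates without naming animals, so p-values reflect how far these libraries scatter, and part of that scatter may be technical.

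A cell that prepares to divide first licenses its replication origins in G1, when *Cdc6* and *Cdt1* load the MCM2-7 helicase onto DNA, and then copies the genome in S phase with the sliding clamp *Pcna* and a supply of deoxynucleotides. E2F transcription factors drive most of these genes. Genes of G2 and mitosis, which encode *Cdk1* and its cyclins, the spindle checkpoint, kinetochores and mitotic motors, are switched on later by B-Myb (*Mybl2*) and FoxM1 acting with the MuvB complex at CHR elements of their promoters. In adult islets few β-cells divide at any time, while MCM proteins and *Pcna* are also made in cells that are not in mitosis.

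Between 35.1 and 67.6 M counts per library were assigned to genes, and control 2, control 3 and mutant 3 were the 3 above 50 M. *Itgb1* itself was at 315 to 432 CPM (counts scaled to library size with TMM factors) in controls and 193 to 266 CPM in mutants, with no overlap (log2 fold change -0.75, SE 0.15, adjusted p = 0.233 by edgeR's quasi-likelihood test and 0.0012 by DESeq2). Controls 2 and 3 stood apart in cell markers. The summed level of 17 acinar markers was 3661 and 11387 CPM in these and 62.2 to 845 CPM in the other 6 libraries, with *Amy2a5*, a pancreatic amylase, at 0 counts in every library. The summed level of 10 endocrine markers, the hormones among them, was 168683 and 281875 CPM in controls 2 and 3 and 43781 to 70835 CPM in the other 6. *Xist*, expressed from the inactive X, exceeded the Y-linked *Ddx3y* in control 3 and mutant 3 and was below it in the other 6 libraries.

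Over all 8 libraries the replication genes had higher and the mitotic genes lower mean levels in mutant islets, and no member passed the test after adjustment. Of 14 replication genes with enough counts to be tested, 11 had a log2 fold change above 0 and 3 below, with a median of 0.35. Of 18 mitotic genes tested, 1 was above 0 and 17 below, with a median of -0.82. All 4 transcription factors were below 0, with a median of -0.57. In bulk islets, fewer cells of a type and less RNA per cell cannot be told apart, and neither can fewer dividing cells and less transcript in each of them. Among all 15233 genes tested 50.2% were above 0, 49.8% below, and the median was 0.0. Scaling by total counts alone, without TMM factors, moved the median of all genes to 0.15, and the replication and mitotic medians were then 0.47 and -0.57. Thymidine kinase *Tk1* and cyclin B1 (*Ccnb1*) had too few counts for the test.

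With thresholds of 0.05 for the adjusted p and of 2 for the fold change, edgeR's quasi-likelihood test with Benjamini-Hochberg adjustment called 0 of the 36 tested members and 0 of all genes (0.0%). The authors, who corrected for batch in their design, report genes called in both directions at these thresholds. Their gene-set analysis lists E2F targets among the sets lower in mutants. DESeq2 called 186 genes (1.22%) at these thresholds, among them 1 member, the spindle checkpoint gene *Bub1b*. At an unadjusted p below 0.05 edgeR's test returned 9 of the 36 members, beside 14.0% of all genes. In the direction of higher levels in mutants these were 4 replication genes and 0 mitotic genes, beside 6.8% of all genes. In the direction of lower levels they were 1 replication gene, 3 mitotic genes and 1 transcription factor, beside 7.19%. Leaving out single libraries moved these counts. The 4 higher replication genes were 1 without control 2, 2 without mutant 1 and 2 without mutant 3. The lower replication gene was lost without any of control 2, control 3, mutant 1, mutant 2 or mutant 4, and 2 were lower without mutant 3. The 3 lower mitotic genes were 1 without any of control 2, control 3, mutant 1, mutant 2 or mutant 4, but 6 without mutant 3, 7 without control 1 and 11 without control 4.

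**Figure D1:**
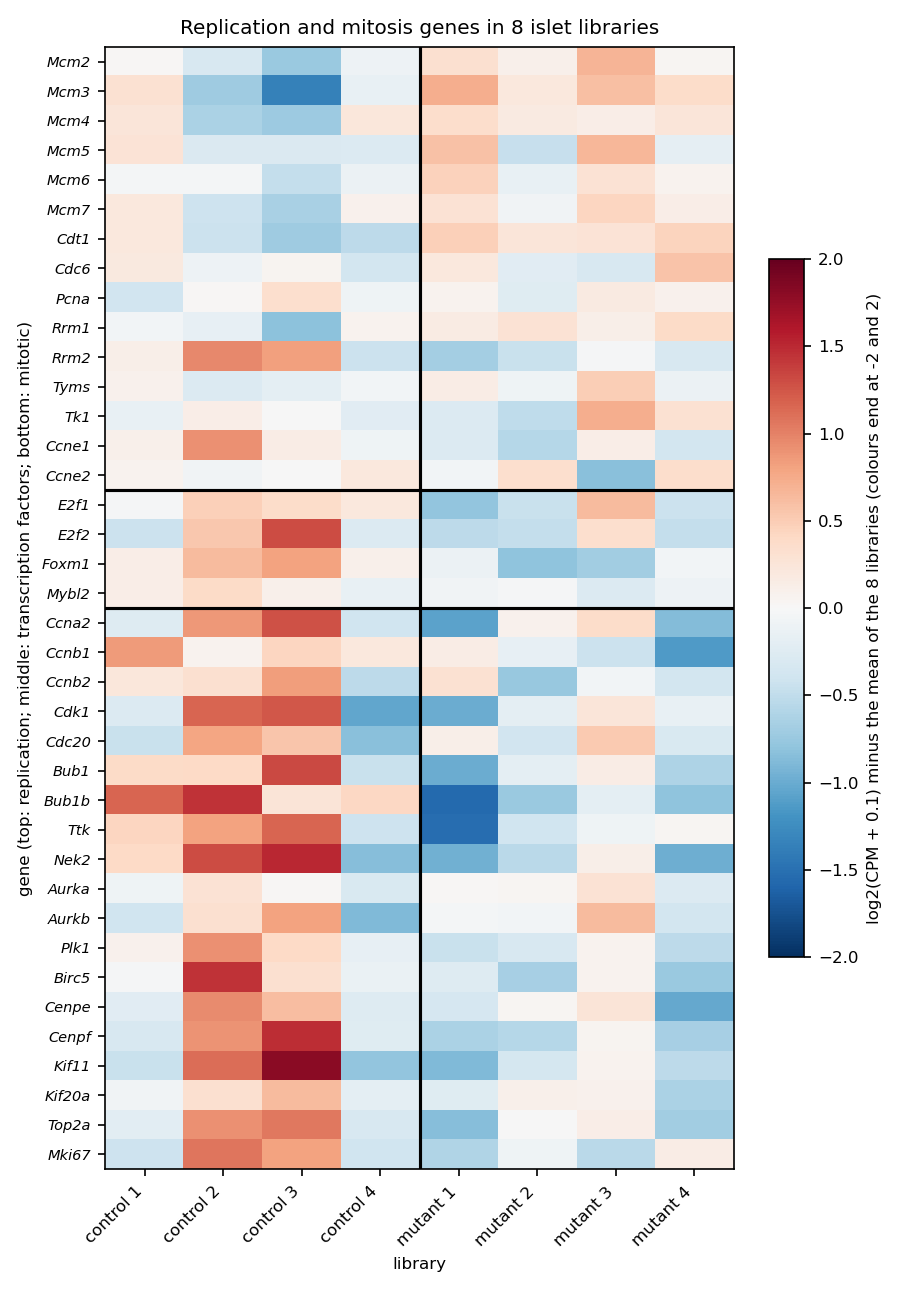
Heat map of the 38 genes (rows) in the 8 libraries (columns), as log2(CPM + 0.1) minus the gene's mean over the 8 libraries, with red for higher and blue for lower. Black lines separate controls from mutants and the replication genes (top), transcription factors (middle) and mitotic genes (bottom); the mitotic genes are red in controls 2 and 3, where most MCM genes are blue.

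The 8 genes of replication licensing all had a higher mean in mutants, with log2 fold changes of 0.15 to 0.85 and a median of 0.37. *Mcm2*, a subunit of the MCM2-7 helicase that unwinds DNA at the fork, is a gene of the minus strand at chr6:88883474-88898780 (GRCm38, as are all positions given here). Its level was 22.2, 17.3, 12.9 and 20.3 CPM in controls (in the order of their numbers, here and further on), against 27.1, 23.2, 35.0 and 22.4 CPM in mutants. Every mutant library was above every control, although mutant 4 and control 1 were nearly level, and the highest value was that of mutant 3 (p = 0.0286 by a two-sided exact permutation test, the lowest p possible with 4 libraries a group). In all, 4.4% of the genes tested had every mutant above every control. The log2 fold change was 0.57 (SE 0.21; unadjusted p = 0.0243, adjusted p = 0.333 by edgeR's quasi-likelihood test). *Mcm3*, another helicase subunit, was at 12.5, 6.18, 3.9 and 9.11 CPM in controls and 16.8, 11.7, 15.5 and 13.1 CPM in mutants. Controls 2 and 3 were the lowest, and control 1 lay above mutant 2, so the groups overlapped. Its log2 fold change of 0.85 (SE 0.33; unadjusted p = 0.0302, adjusted p = 0.335 by edgeR's test) was the highest of the members. *Cdt1*, the loading factor that brings the helicase to origins, was at 5.01, 3.19, 2.6 and 2.98 CPM in controls and 6.04, 5.1, 5.26 and 5.93 CPM in mutants. The mutants lay close together above the controls, of which control 1 came nearest (log2 fold change 0.70, SE 0.24; unadjusted p = 0.0169, adjusted p = 0.333 by edgeR's test).

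The other 5 licensing genes did not reach an unadjusted p below 0.05. *Mcm6* was at 24.4 ± 3.32 CPM in controls and 30.7 ± 5.62 CPM in mutants (SD, n = 4 each), and the log2 fold change was 0.34. *Mcm4* was at 32.1, 17.3, 16.2 and 31.5 CPM in controls and 29.5 to 34.3 CPM in mutants. Its 2 lower controls were again libraries 2 and 3, while controls 1 and 4 lay within the range of the mutants. *Mcm5* and *Mcm7*, the remaining helicase subunits, both had log2 fold changes of 0.36 (SE 0.30 and 0.22). *Cdc6*, the ATPase that recruits the helicase together with *Cdt1*, was at 1.22 ± 0.213 CPM in controls and 1.36 ± 0.43 CPM in mutants. Control 3 had the lowest level of the 8 libraries in 6 of the 8 licensing genes, against 21.0% of all genes tested. With control 2 and control 3 left out, the licensing genes had a median of 0.24, with 7 above 0.

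The genes of the replication fork and of nucleotide supply did not share a direction. *Rrm1*, the large subunit of ribonucleotide reductase, which makes deoxynucleotides, was at 35.1, 32.5, 20.6 and 38.1 CPM in controls and 40.6, 44.6, 39.4 and 47.2 CPM in mutants. All mutants were above all controls, with the closest pair mutant 3 and control 4 (log2 fold change 0.44, SE 0.19; unadjusted p = 0.041, adjusted p = 0.344 by edgeR's test). *Rrm2*, the small subunit of the same enzyme and the one made mainly in S phase, was at 2.65, 4.86, 4.41 and 1.79 CPM in controls and 1.49, 1.78, 2.41 and 1.94 CPM in mutants. It was lower in mutants in the mean, with controls 2 and 3 above all other libraries and control 4 within the mutant range (log2 fold change -0.85, SE 0.34; unadjusted p = 0.0368, adjusted p = 0.341 by edgeR's test). The 2 subunits of ribonucleotide reductase therefore had fold changes of opposite sign, and a test of that difference was not run. *Pcna* was at 19 ± 3.85 CPM in controls and 19.5 ± 2.3 CPM in mutants (SD, n = 4 each), and the log2 fold change was 0.04 with a standard error of 0.17. *Tyms*, which makes thymidylate, had a log2 fold change of 0.24 (SE 0.20). *Tk1*, which salvages thymidine in S phase, stood at 5 to 28 counts per library, or 0.167 to 0.241 CPM in controls and 0.12 to 0.414 CPM in mutants. The E-type cyclins, which start S phase with Cdk2, were at -0.58 (SE 0.29) for *Ccne1* and -0.04 (SE 0.27) for *Ccne2*.

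**Figure D2:**
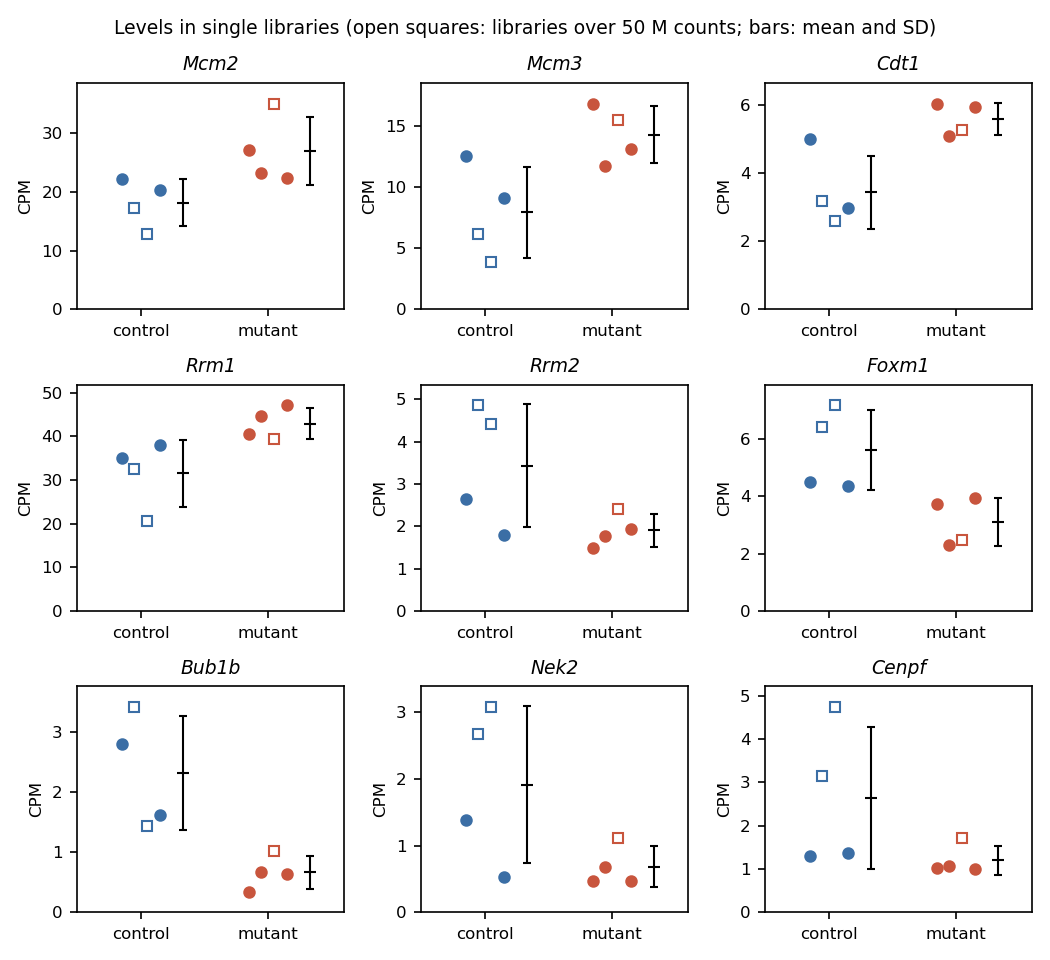
Levels in CPM (vertical axes, each from 0) of 9 members in the 4 control (blue) and 4 mutant (red) libraries, for the genes with an unadjusted p below 0.05. Open squares are the 3 libraries above 50 M counts and black bars show mean and SD; mutant and control points do not overlap for *Mcm2*, *Cdt1*, *Rrm1*, *Foxm1* and *Bub1b*.

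The promoters of these genes are shown to compare the letters of replication genes with those of mitotic genes further on. They cover 250 bases before to 50 bases after the annotated start, from RefSeq (GRCm38.p6), which had an entry for 32 of the 38 genes. Capitals mark 3 motifs, searched on both strands. The E2F motif was taken as TTGGCGC, and its variants were TTCGCGC and also TTCCCGC. The CHR motif was taken as TTTGAA, with TTCGAA as its variant. The last motif was the CCAAT box, which is bound by NF-Y. Overlapping matches are joined, and E2F and CCAAT letters can overlap, as they do in *Mcm7* and *Ccnb1*. *Mcm3* and *Cdt1* were chosen as licensing genes with a higher mean in mutants and E2F letters at the start site, *Rrm1* as the nucleotide supply gene, and *Mcm2* as a licensing gene without E2F letters in the window.
*Mcm3* (chr1:20820263-20820562, minus strand): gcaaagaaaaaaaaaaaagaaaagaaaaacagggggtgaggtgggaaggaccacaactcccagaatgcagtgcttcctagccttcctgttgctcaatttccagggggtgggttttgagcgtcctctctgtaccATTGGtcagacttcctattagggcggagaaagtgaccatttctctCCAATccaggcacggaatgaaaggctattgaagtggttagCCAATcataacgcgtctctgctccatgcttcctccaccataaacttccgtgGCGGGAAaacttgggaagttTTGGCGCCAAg
*Cdt1* (chr8:122567765-122568064, plus strand): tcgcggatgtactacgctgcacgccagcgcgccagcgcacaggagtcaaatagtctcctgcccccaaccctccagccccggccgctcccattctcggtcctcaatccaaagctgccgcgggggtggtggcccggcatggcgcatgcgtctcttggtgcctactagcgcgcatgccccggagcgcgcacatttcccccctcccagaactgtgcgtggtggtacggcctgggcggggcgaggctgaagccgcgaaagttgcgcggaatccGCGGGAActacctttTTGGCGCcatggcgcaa
*Rrm1* (chr7:102441445-102441744, plus strand): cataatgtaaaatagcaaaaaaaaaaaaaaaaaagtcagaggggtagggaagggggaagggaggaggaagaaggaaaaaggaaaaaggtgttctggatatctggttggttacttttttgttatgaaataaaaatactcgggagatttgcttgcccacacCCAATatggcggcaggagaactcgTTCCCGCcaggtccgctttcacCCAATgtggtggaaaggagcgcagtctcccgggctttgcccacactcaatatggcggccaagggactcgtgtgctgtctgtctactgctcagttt
*Mcm2* (chr6:88898731-88899030, minus strand): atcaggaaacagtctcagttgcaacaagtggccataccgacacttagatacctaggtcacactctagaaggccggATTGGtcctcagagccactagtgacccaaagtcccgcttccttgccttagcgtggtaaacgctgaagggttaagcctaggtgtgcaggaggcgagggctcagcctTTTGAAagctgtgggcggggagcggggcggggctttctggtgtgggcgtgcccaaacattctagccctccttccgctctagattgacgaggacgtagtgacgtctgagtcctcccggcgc
In *Mcm3* the E2F letters began 19 and 39 bases after the start, and in *Cdt1* 18 and 33 bases after it. *Rrm1* held its E2F match 67 bases before the start, between 2 CCAAT boxes. *Mcm2* held no E2F match but a CHR match 70 bases before the start. A match is a description of letters and not a measured binding site, and the absence of a match says only that these letters are not in the window.

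The 4 transcription factors all had a lower mean in mutants. *Foxm1*, a forkhead factor that drives G2 and mitotic genes, was at 4.49, 6.4, 7.18 and 4.36 CPM in controls and 3.73, 2.29, 2.48 and 3.94 CPM in mutants. No mutant reached a control, although mutant 4 was close to control 4 (two-sided exact permutation p = 0.0286). The log2 fold change was -0.86 (SE 0.27; unadjusted p = 0.0122, adjusted p = 0.333 by edgeR's test and 0.0851 by DESeq2). It was -0.42 (SE 0.26; unadjusted p = 0.158 by edgeR's test) within the 5 libraries of at most 50 M counts and -0.52 (SE 0.27; unadjusted p = 0.103) with controls 2 and 3 left out. *Mybl2*, which acts with MuvB ahead of *Foxm1*, was at 1.21 ± 0.2 CPM in controls and 1.01 ± 0.0848 CPM in mutants (SD, n = 4 each), and the log2 fold change was -0.27. *E2f1*, an activator of replication genes, was at 10.1, 14.3, 13.2 and 11.8 CPM in controls and 5.9, 7.48, 16.0 and 7.54 CPM in mutants. Mutant 3 exceeded every control while the other 3 mutants were below all of them. The log2 fold change of *E2f1* was -0.42 over all libraries, -0.83 without mutant 3, and -0.66 (SE 0.16; unadjusted p = 0.00694 by edgeR's test) within the 5 libraries of at most 50 M counts. *E2f2*, a related activator, was highest in control 3 with 5.21 CPM, followed by control 2 with 3.02 CPM and mutant 3 with 2.61 CPM, and the other 5 libraries were at 1.4 to 1.69 CPM. Its 3 highest libraries are the 3 of over 50 M counts, and its log2 fold change of -0.72 was 0.15 with controls 2 and 3 left out.

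Among the mitotic genes the difference was widest for *Bub1b*, which encodes the checkpoint protein BubR1 that holds back anaphase until chromosomes are attached. *Bub1b* lies on the plus strand at chr2:118598211-118641592. Its level was 2.8, 3.43, 1.44 and 1.62 CPM in controls and 0.339, 0.674, 1.02 and 0.64 CPM in mutants. All controls were above all mutants, and controls 2 and 3 were not its 2 highest controls (two-sided exact permutation p = 0.0286). The log2 fold change was -1.77 (SE 0.41; unadjusted p = 0.00224, adjusted p = 0.301 by edgeR's quasi-likelihood test and 0.0113 by DESeq2). It was -2.0 (SE 0.40; unadjusted p = 0.00278, adjusted p = 0.0929 by edgeR's test) within the 5 libraries of at most 50 M counts and -1.66 with controls 2 and 3 left out. In mutant 3 against the mean of controls 2 and 3 it was -1.26, a value with no test. The same value was -1.49 for *Mki67*, -1.47 for *Kif11* and -1.36 for *Nek2*, but 0.12 for *Aurka* and 0.07 for *Aurkb*. It was thus not particular to *Bub1b*. Counts of *Bub1b* ranged from 15 to 185 per library, so its lowest value, in mutant 1, rests on 15 reads. It was the single mitotic member whose groups did not overlap, and 3.8% of all genes tested had all mutants below all controls.

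The other spindle checkpoint and mitotic kinases had lower means in mutants except *Aurka*. *Nek2*, a kinase of centrosome separation, was at 1.38, 2.67, 3.08 and 0.525 CPM in controls and 0.475, 0.674, 1.12 and 0.474 CPM in mutants. Controls 2 and 3 were the highest, and control 4 lay within the mutant range (log2 fold change -1.46, SE 0.55; unadjusted p = 0.0266, adjusted p = 0.333 by edgeR's test). It was -0.79 (SE 0.49) within the 5 libraries and -0.37 (SE 0.55) with controls 2 and 3 left out. *Bub1*, the partner kinase of BubR1 at kinetochores, was at 0.623, 0.631, 1.29 and 0.31 CPM in controls and 0.181, 0.385, 0.517 and 0.261 CPM in mutants, with a log2 fold change of -1.06 (SE 0.50). *Ttk*, the kinase that starts checkpoint signalling, was at -1.26 (SE 0.56) and rested on 2 to 44 counts per library. *Plk1*, which acts throughout mitosis, was at 0.871 ± 0.326 CPM in controls and 0.52 ± 0.121 CPM in mutants (SD, n = 4 each), and the log2 fold change was -0.74. These 3 genes did not reach an unadjusted p below 0.05. *Aurka*, the kinase of spindle poles, was at 2.34 ± 0.431 CPM in controls and 2.41 ± 0.392 CPM in mutants, a log2 fold change of 0.04 with a standard error of 0.23. *Aurkb*, the kinase of the chromosomal passenger complex, was at 5 to 36 counts per library, and its log2 fold change of -0.02 took either sign when a library was left out (-0.38 without mutant 3, 0.44 without control 3).

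Kinetochore and motor genes were high in the same controls. *Cenpf*, a large kinetochore protein made in G2, was at 1.3, 3.15, 4.75 and 1.38 CPM in controls and 1.02, 1.08, 1.71 and 0.996 CPM in mutants. Mutant 3 lay above controls 1 and 4 (log2 fold change -1.13, SE 0.46; unadjusted p = 0.0353, adjusted p = 0.341 by edgeR's test), and the value was -0.38 (SE 0.23) within the 5 libraries and -0.12 (SE 0.33) with controls 2 and 3 left out. *Kif11*, the motor that pushes spindle poles apart, was at 1.27, 3.95, 6.37 and 0.977 CPM in controls and 0.904, 1.35, 1.86 and 1.19 CPM in mutants. Only controls 2 and 3 stood out, and its log2 fold change of -1.24 (SE 0.58) was 0.02 (SE 0.30) within the 5 libraries of at most 50 M counts and 0.28 with controls 2 and 3 left out. *Birc5*, the survivin subunit of the passenger complex, was highest in control 2 at 2.21 CPM, with 0.403 to 0.95 CPM elsewhere, and its log2 fold change of -1.02 was -0.47 without that library. The kinetochore motor *Cenpe* was at -0.58 (SE 0.40) and the cytokinesis motor *Kif20a* at -0.37 (SE 0.28).

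The proliferation markers *Mki67*, which coats mitotic chromosomes, and *Top2a*, the topoisomerase that untangles sister chromatids, followed the same libraries. *Mki67* was at 8.36, 23.5, 19.4 and 8.39 CPM in controls and 7.3, 10.5, 7.65 and 12.4 CPM in mutants. Controls 1 and 4 lay inside the mutant range, and the log2 fold change of -0.66 (SE 0.37) was 0.26 (SE 0.23) within the 5 libraries of at most 50 M counts. *Top2a* was at 4.93, 10.9, 12.0 and 4.58 CPM in controls and 3.12, 5.7, 6.32 and 3.49 CPM in mutants, with a log2 fold change of -0.80 (SE 0.39) over all libraries and -0.22 (SE 0.29) within the 5. *Cdk1*, the kinase that starts mitosis, was at 0.882, 2.56, 2.7 and 0.477 CPM in controls and 0.497, 0.938, 1.31 and 0.972 CPM in mutants. Its log2 fold change was -0.83 over all libraries and 0.51 with controls 2 and 3 left out. Its cyclins *Ccna2* and *Ccnb2* were at -0.84 (SE 0.51) and -0.51 (SE 0.38), and *Cdc20*, the activator of the anaphase-promoting complex, at -0.15 (SE 0.45). *Ccnb1* had 1 to 15 counts per library, or 0.186 to 0.389 CPM in controls and 0.0237 to 0.203 CPM in mutants.

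The promoters of 4 mitotic genes are shown in the same form. *Bub1b*, *Cenpf* and *Nek2* are the mitotic genes with an unadjusted p below 0.05, and *Top2a* is shown as the gene with the most CHR and CCAAT matches among the 8 promoters printed.
*Bub1b* (chr2:118597961-118598260, plus strand): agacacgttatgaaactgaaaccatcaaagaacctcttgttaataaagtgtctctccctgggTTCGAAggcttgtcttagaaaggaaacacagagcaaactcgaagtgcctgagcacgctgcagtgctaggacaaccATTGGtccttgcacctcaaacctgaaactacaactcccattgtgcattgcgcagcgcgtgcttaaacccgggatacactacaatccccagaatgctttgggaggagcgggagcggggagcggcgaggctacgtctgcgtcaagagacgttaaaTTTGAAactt
*Cenpf* (chr1:189688037-189688336, minus strand): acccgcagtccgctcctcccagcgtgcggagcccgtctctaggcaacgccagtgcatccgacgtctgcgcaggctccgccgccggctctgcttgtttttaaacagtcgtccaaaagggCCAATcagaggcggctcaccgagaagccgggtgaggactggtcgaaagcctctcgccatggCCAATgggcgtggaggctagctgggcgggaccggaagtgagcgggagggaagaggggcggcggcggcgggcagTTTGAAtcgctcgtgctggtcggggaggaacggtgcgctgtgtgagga
*Nek2* (chr1:191821223-191821522, plus strand): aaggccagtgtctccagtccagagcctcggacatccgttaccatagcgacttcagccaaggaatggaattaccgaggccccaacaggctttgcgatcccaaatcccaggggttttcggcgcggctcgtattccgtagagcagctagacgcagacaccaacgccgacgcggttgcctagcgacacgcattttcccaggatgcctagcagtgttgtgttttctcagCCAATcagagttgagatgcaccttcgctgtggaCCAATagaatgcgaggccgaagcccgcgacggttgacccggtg
*Top2a* (chr11:99024140-99024439, minus strand): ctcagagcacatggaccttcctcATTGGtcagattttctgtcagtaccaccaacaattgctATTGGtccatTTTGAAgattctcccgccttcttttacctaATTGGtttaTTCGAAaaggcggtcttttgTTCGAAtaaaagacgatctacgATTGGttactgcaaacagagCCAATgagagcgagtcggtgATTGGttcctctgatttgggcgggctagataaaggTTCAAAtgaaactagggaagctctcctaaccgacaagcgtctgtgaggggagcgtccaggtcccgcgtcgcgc
*Bub1b* held a CHR match 188 bases before the start and another 40 bases after it, *Cenpf* held a match 2 bases after the start, and *Top2a* held 4, the last of them 23 bases before the start. *Nek2* held no CHR match and 2 CCAAT boxes. None of the 4 held E2F letters.

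Motif shares differed between the replication and the mitotic genes. Each gene was counted once, also where it had several promoters. The E2F motif was found in 7 of 13 replication promoters (53.8%) and 3 of 16 mitotic promoters (18.8%), beside 9.2% of 27025 genes in the promoter table and 15.9% of the 11636 of them that were tested for expression. The mitotic share is thus near that of the tested genes. Among the replication genes, the E2F motif was found in 6 of the 7 licensing genes with a promoter (85.7%). It was found in 1 of the 6 genes of the clamp, nucleotide supply and E-type cyclins (16.7%), also near the share of the tested genes. The CHR motif was found in 2 of 13 replication promoters (15.4%) and 12 of 16 mitotic promoters (75.0%), beside 21.7% of all genes and 16.3% of those tested. In 11 mitotic genes and 0 replication genes a CHR match lay within 50 bases of the start, a count that was not made for all genes. CCAAT boxes were found in 8 of 13 (61.5%) and 15 of 16 (93.8%), beside 41.1% and 42.3%. Other replication genes, which were listed by function and are not members, held the E2F motif in 25 of 40 promoters (62.5%) and other mitotic genes the CHR motif in 42 of 58 (72.4%). Without TTCCCGC among its letters, the E2F motif stood in 5 of the 13 replication promoters (38.5%) and still in 3 of the 16 mitotic promoters, beside 4.47% of all genes and 7.76% of those tested.

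**Figure D3:**
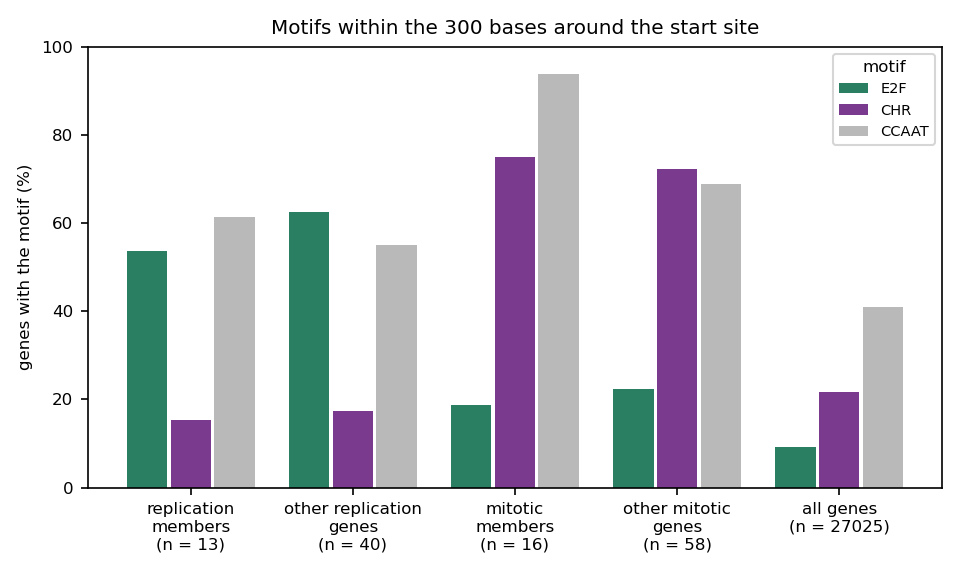
Share of genes (vertical axis, percent) whose promoter window of 300 bases holds the E2F (green), CHR (purple) or CCAAT (grey) motif, for the replication and mitotic members, other replication and mitotic genes and all genes of the table, with the number of genes under each group. E2F bars are tallest in the replication groups and CHR bars in the mitotic groups.

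The levels of the mitotic genes were low. Per kilobase of gene length, the mean level over the 8 libraries was 0.359 CPM per kb at the median of the 19 mitotic genes and 2.13 CPM per kb at the median of the 15 replication genes. *Pcna* was highest with 15.4 CPM per kb, followed by *Rrm1* with 9.36 and *Mcm4* with 7.82 CPM per kb. *Mki67* and *Aurka* led the mitotic genes with 1.21 CPM per kb each. The ratio of the highest to the lowest library was 5.1 at the median of the mitotic genes and 2.29 at the median of the replication genes. The median mitotic gene had 51 counts per library and the median replication gene 332, so counting error is larger for the mitotic genes.

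The 8 libraries did not share the contrast between the classes equally. The mean of the centred log2(CPM + 0.1) over the 18 mitotic genes was -0.03, 0.85, 0.89 and -0.43 in controls 1 to 4 and -0.61, -0.28, 0.12 and -0.52 in mutants 1 to 4. Controls 1 and 4 were within the range of the mutants and controls 2 and 3 above every other library. The same mean over the 14 replication genes was 0.10, -0.11, -0.33 and -0.11 in controls and 0.20, -0.06, 0.20 and 0.12 in mutants, with the lowest value in control 3. The replication level minus the mitotic level was 0.12, -0.96, -1.22 and 0.32 in controls and 0.81, 0.21, 0.08 and 0.64 in mutants.

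Single genes showed the same libraries. With TMM factors, the highest library was control 2 or control 3 in 18 of 18 tested mitotic genes, beside 39.4% of all genes tested. Both were above all 6 other libraries in 15 of the 18, beside 20.1%. For 6 of the 14 tested replication genes controls 2 and 3 were both below all others, beside 21.3%. Their TMM factors, 0.8667 and 0.7786, raise every gene in these libraries, while the other 6 factors were 1.0475 to 1.098. By total counts alone, *Aurka* was higher in mutant 3 (195 of 63.9 M) than in control 2 (157 of 62.2 M) or control 3 (125 of 67.6 M). The gene counts were not repeated without the factors. Controls 2 and 3 also had the highest acinar and endocrine marker levels. Their ductal marker levels of 599 and 363 CPM were below those of the other 6 libraries (1063 to 3078 CPM). The part of acinar, endocrine or ductal cells in the levels of the members was not tested. Fibroblast and pericyte markers were at 331 to 495 CPM in controls and 739.8 to 905 CPM in mutants without overlap, and macrophage markers at 61.2 to 108 CPM and 57.9 to 116 CPM. Their part in the result was not tested. The summed level of 10 lymphocyte markers was 3.55 to 6.09 CPM in controls and 3.21 to 6.05 CPM in mutants, with *Cd8a* at 0 counts in the controls, and no ductal, fibroblast, macrophage or endocrine marker was at 0 counts in any library.

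**Figure D4:**
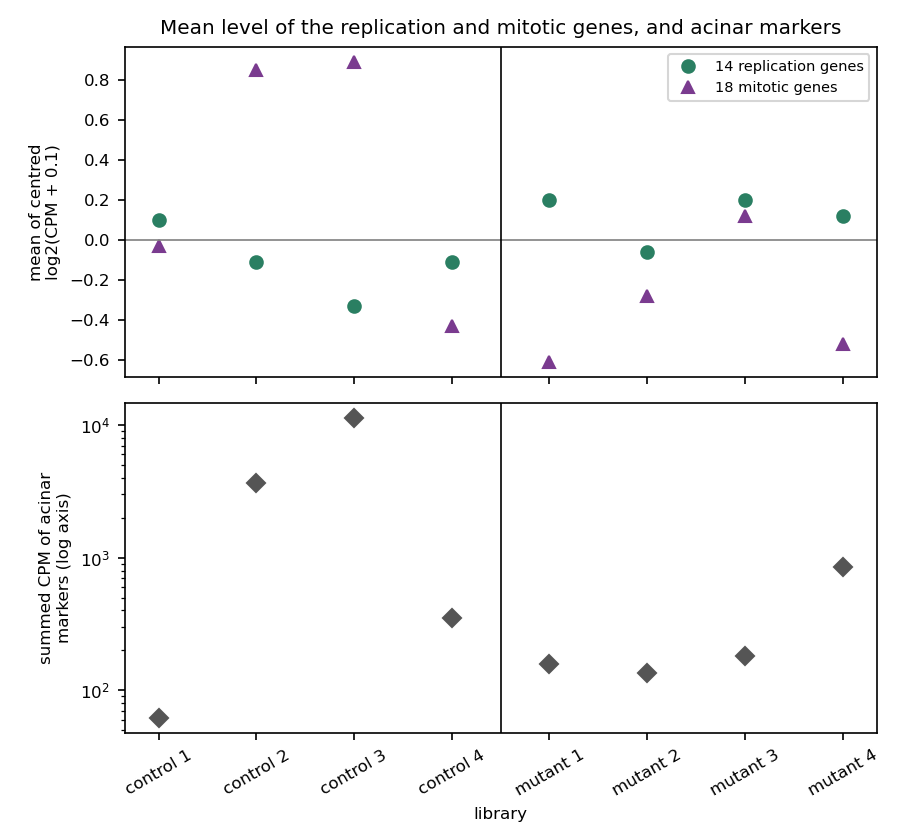
Upper panel: mean centred log2(CPM + 0.1) of 14 replication (green circles) and 18 mitotic genes (purple triangles) in each library. Lower panel: summed CPM of 17 acinar markers on a log axis; controls 2 and 3 have the highest mitotic levels and the highest acinar marker levels, while controls 1 and 4 lie within the range of the mutants (-0.61 to 0.12) in the mitotic genes.

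The medians lay nearer to 0 within the 5 smaller libraries and with controls 2 and 3 left out. Among the libraries above 50 M counts, the replication level minus the mitotic level was -0.96 and -1.22 in controls 2 and 3. It was 0.08 in mutant 3, a comparison with no test. The part of library size was not tested. Within the 5 libraries of at most 50 M counts, 2 controls and 3 mutants, the median log2 fold change was 0.13 for the replication genes and -0.18 for the mitotic genes, and 12 of 18 mitotic genes were below 0, beside 49.6% of all genes. In that fit 1 replication gene was higher (*Rrm1*, 0.27, SE 0.09; unadjusted p = 0.0253) and 1 mitotic gene lower (*Bub1b*) at an unadjusted p below 0.05 by edgeR's test, beside 12.6% of all genes higher and 10.7% lower. Of the other replication genes with such a p over all libraries, *Mcm2* was at 0.19 (SE 0.11) within the 5, *Mcm3* at 0.36 (SE 0.21), *Cdt1* at 0.51 (SE 0.25) and *Rrm2* at -0.35 (SE 0.27). With controls 2 and 3 left out these were 0.35, 0.41, 0.48 and -0.19, and *Rrm1* was at 0.23. With a term for the division at 50 M counts the medians were 0.32 and -0.45. With controls 2 and 3 left out they were 0.22 and -0.01, with 9 mitotic genes above and 9 below 0, beside 45.7% of all genes below 0. In that fit 0 replication genes were higher and 1 mitotic gene, *Bub1b*, was lower at an unadjusted p below 0.05, beside 4.15% and 4.01% of all genes. Libraries above 50 M counts hold 2 controls and 1 mutant, so a batch at this division and the genotype are only partly separable, and neither the labels nor the methods name it as a batch.

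**Figure D5:**
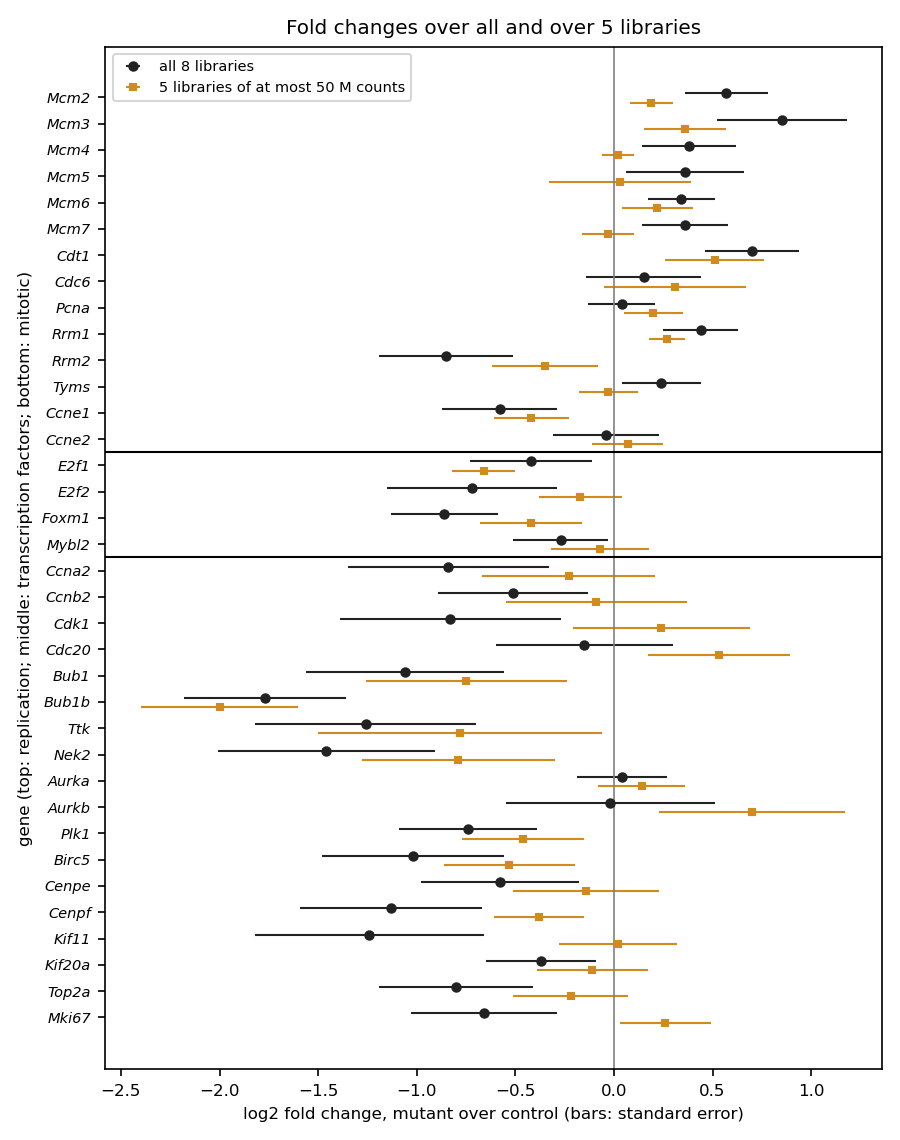
Log2 fold change of mutant over control (horizontal axis, bars show the standard error) for the 36 tested members, from all 8 libraries (black circles) and from the 5 libraries of at most 50 M counts (orange squares). The black points of the mitotic genes at the bottom lie mostly below 0 and the orange points nearer to 0, except for *Bub1b* at -1.77 and -2.0.

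Genes of the same processes outside the 38 were read from lists made by function, also with earlier results known. Of 50 other replication genes tested, 0 were higher and 1 was lower at an unadjusted p below 0.05 (lost without control 1, control 2, mutant 1 or mutant 4, and 3 without control 4), with a median log2 fold change of 0.11 that was -0.08 within the 5 libraries and 0.0 with controls 2 and 3 left out. The lower gene was *Orc4*, a subunit of the origin recognition complex, at 48.0 to 70 CPM in controls and 42.5 to 54.4 CPM in mutants (log2 fold change -0.35, SE 0.14; unadjusted p = 0.0333, adjusted p = 0.339 by edgeR's test). Of 74 other mitotic genes tested, 0 were higher and 7 lower, beside 6.8% and 7.19% of all genes, 58 had a log2 fold change below 0, and the median was -0.19. With total counts only, 36 were above 0 and 38 below (median -0.02), and with controls 2 and 3 left out 39 were above and 36 below (median 0.02). Without control 2, mutant 1 or mutant 4 the 7 were 1, without control 3 they were 2 and without mutant 2 they were 4, but without mutant 3 they were 12 and without control 4 they were 15. The 2 with the smallest p were *Cit*, the citron kinase of cytokinesis (log2 fold change -1.72, SE 0.44; unadjusted p = 0.00367, adjusted p = 0.333 by edgeR's test and 0.0113 by DESeq2), and *Pbk*, a mitotic kinase (-1.84, SE 0.67; unadjusted p = 0.0231, adjusted p = 0.333 by edgeR's test). *Cit* was at 7.27, 13.5, 17.6 and 3.79 CPM in controls and 2.87 to 4.14 CPM in mutants. *Pbk* was at 0.882, 2.19, 3.74 and 0.381 CPM in controls and 0.271 to 0.739 CPM in mutants. In both genes control 4 lay within the mutant range and the 2 highest libraries were controls 2 and 3. Within the 5 libraries *Cit* was at -0.75 (unadjusted p = 0.0688 by edgeR's test) and *Pbk* at -0.59 (unadjusted p = 0.308). Of 16 genes of the E2F, pocket protein and MuvB complexes and of 16 genes of the anaphase-promoting complex, 0 had an unadjusted p below 0.05 by edgeR's test and 0 were called, with medians of -0.05 and -0.10.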

How the data were processed

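Total RNA of islets from 4 control and 4 mutant samples was sequenced after removal of ribosomal RNA with the KAPA RiboErase kit (single-end reads of 50 bases). The labels name the RNeasy Mini kit and the methods the Micro kit. Per the methods, the authors ran Trimmomatic and FASTP on the reads, then STAR against mm10 and featureCounts, and they deposited raw counts per gene. No version of STAR, featureCounts or edgeR stands in the submitters' processing notes, where the build is GRCm38. A table of the authors' own comparison, with 8 columns of values per library, fold changes and p-values, was not used. Of 24091 genes, 15233 passed filterByExpr and entered edgeR 4.0.16 (R 4.3.3; TMM, quasi-likelihood test), in a model of genotype alone and with p adjusted over all genes tested. The authors' batch term is not named, so none was used. The standard error is the log2 fold change divided by the square root of F. A pseudocount of 0.1 CPM was added before centring. The test was checked on simulated counts. All 8 libraries differed beyond counting noise, with a mean chi-square per gene of at least 28 between any pair. The table turned 26 gene symbols into dates.

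The members and lists were chosen with earlier results of these data known. Named genes are all 38 members, the targeted gene *Itgb1*, and of each wider list up to 2 genes per direction with the smallest p below 0.05. Cell markers are given as sums, and *Amy2a5*, *Cd8a*, *Xist* and *Ddx3y* were added after their values were seen. Alternatives were DESeq2 1.42.0, RLE factors, total counts only, no or a stricter count filter, a block for the replicate number, a term for libraries over 50 M counts, the 5 other libraries alone, leaving out each library, and, chosen after seeing the data, leaving out controls 2 and 3.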

Additional observations from a re-analysis of the deposited data

Results flagged for a closer look

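Of 78 groups of 4 libraries (each member and *Itgb1* in each genotype), 4 held a library whose gap to the nearest of the others, divided by the range of the group, exceeded Dixon's 95% critical value. Chance flags about 1 in 20 groups. Mutant 3 had 16.0 CPM of the replication activator *E2f1*, with 5.9 to 7.54 CPM in the other mutants. Mutant 3 also had 2.61 CPM of *E2f2*, with 1.4 to 1.45 CPM in the others, and 1.71 CPM of the kinetochore gene *Cenpf*, with 0.996 to 1.08 CPM in the others. Control 1 had 5.71 CPM of the helicase subunit *Mcm5*, with 3.84 to 3.91 CPM in the other controls. Mutant 3 is the mutant library above 50 M counts, and its part in these values was not tested.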

How the results depend on the processing

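Of the 36 tested members, 21 kept the sign of their log2 fold change under each alternative that gave a value and 15 did not. With controls 2 and 3 left out, the sign changed for *Mcm4* (-0.01), *E2f2* (0.15), *Ccna2* (0.14), *Cdk1* (0.51), *Cdc20* (0.82), *Aurkb* (1.11), *Cenpe* (0.10), *Kif11* (0.28) and *Mki67* (0.17). Within the 5 smaller libraries it changed for *Mcm7* (-0.03), *Tyms* (-0.03), *Ccne2* (0.07), *Cdk1* (0.24), *Cdc20* (0.53), *Aurkb* (0.70), *Kif11* (0.02) and *Mki67* (0.26). With total counts only it changed for *Ccne2* (0.10), *Cdc20* (0.08) and *Aurkb* (0.22), and with the division as a term for *Cdc20* (0.21) and *Aurkb* (0.34). Leaving out 1 library gave -0.06 to 0.28 for *Cdc6*, -0.07 to 0.17 for *Pcna*, -0.17 to 0.17 for *Ccne2*, -0.41 to 0.17 for *Cdc20*, -0.06 to 0.16 for *Aurka* and -0.38 to 0.44 for *Aurkb*. The causes were not tested. *Bub1b* passed both thresholds under DESeq2 (-1.80) and *Itgb1* passed the adjusted p there (-0.75).

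Calls over all genes were 186 with DESeq2, 3 with the division as a term, 10 within the 5 libraries and 0 without any 1 library; members called were 1 with DESeq2. Genes at an unadjusted p below 0.05 were 3630 within the 5 libraries, 1278 with controls 2 and 3 left out and 1214 to 2913 without 1 library. Replication members higher at that p were 2 with total counts only, 1 within the 5 libraries, 0 with controls 2 and 3 left out and 1 to 4 without 1 library. Replication members lower were 0 in these 3 fits and 0 to 2 without 1 library. Mitotic members lower were 5 with DESeq2, 1 within the 5 libraries, 1 with controls 2 and 3 left out and 1 to 11 without 1 library. Other replication genes higher were 1 within the 5 libraries, 1 with controls 2 and 3 left out and 0 to 1 without 1 library, and those lower were 0 with total counts only, 2 with the division as a term, 3 within the 5 libraries, 2 with controls 2 and 3 left out and 0 to 3 without 1 library. Other mitotic genes higher were 2 within the 5 libraries and 0 to 1 without 1 library, and those lower were 3 with total counts only, 3 within the 5 libraries, 1 with controls 2 and 3 left out and 1 to 15 without 1 library. The median of the replication genes was 0.13 and that of the mitotic genes -0.18 within the 5 libraries (difference 0.31), and the mitotic median was -0.01 with controls 2 and 3 left out (difference 0.23, against 1.16 over all libraries). Without TTCCCGC among the E2F letters, the motif stood in 4.47% of all genes, 12 of 40 other replication genes and 8 of 58 other mitotic genes (13.8%).

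Deviations from the group mean correlated between control and mutant libraries of the same number at 0.4228, -0.0127, 0.4568 and 0.2539. Replicate 2 was below the bar of 0.1 set for every pair, 6 of the 8 libraries correlated best with the library of their own number, and neither labels nor methods tie equal numbers to one mouse or experiment, so the numbers were not taken as pairs. With the replicate number as a block, 6 mitotic members and 11 other mitotic genes were lower and 1 other mitotic gene higher at an unadjusted p below 0.05, *Aurkb* was at 0.03, 2782 genes had such a p, and 0 were called. Low counts limit *Tk1*, *Ccnb1*, *Ttk* and *Aurkb*, and 2 controls against 3 mutants or 4 mutants limit the fits without controls 2 and 3.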
